A study of Homo sapiens with 12 samples.

Results

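The Schlafen genes SLFN5, SLFN11, SLFN12 and SLFN13 were followed through 12 RNA-seq libraries of oral squamous carcinoma cells in which TTK, a mitotic spindle checkpoint kinase, had or had not been knocked down. The 4 genes were taken by symbol, 4 of 58735 lines of the count table, and all 4 were among the 16946 genes that passed the filter on low counts. SLFN13 passed that filter through the CAL-27 libraries alone. The set was chosen by SLFN11, for its measured fall in SCC-15 after knockdown, together with its family members on the same chromosome, so the values of these genes in the SCC-15 knockdown comparison are given as a description without a test.

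Poly(A) RNA was sequenced from SCC-15 and CAL-27, both established lines of human oral squamous cell carcinoma. The 4 groups were SCC-15 shTTK, SCC-15 shControl, CAL-27 shTTK and CAL-27 shControl, with 3 libraries each. The shTTK cells carry a short hairpin RNA against TTK. The labels call the other cells shControl but also give them as wild type and untreated, which leaves the presence of a control hairpin unsettled, and they do not say how many hairpins or clones were used. All libraries are labelled batch 1. No label says that the replicates of a group were separate cultures, so the p-values here measure a spread among samples that may be technical only.

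Schlafen proteins are a family of mammalian proteins, several of which are induced by interferon and restrict viruses. SLFN11 binds the single-stranded DNA-binding protein RPA at stressed replication forks, blocks their progress, and cleaves certain tRNAs; across cancer cell lines its expression accompanies sensitivity to DNA-damaging drugs. SLFN5 is a nuclear member with a helicase-like domain, as SLFN11 and SLFN13 have, SLFN12 is a shorter RNase that complexes with the phosphodiesterase PDE3A, and SLFN13 is an RNase that cleaves tRNA and rRNA.

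In both lines all shTTK libraries had less TTK than any shControl library. It had 26.9, 29.2 and 34.3 CPM, read counts scaled by TMM to a common library depth, in the SCC-15 shTTK libraries, against 67.5, 69.4 and 72.9 CPM in SCC-15 shControl (log2 change -1.21, edgeR adjusted p = 1.92e-25). In CAL-27 it had 35.6, 32.5 and 33.5 CPM in shTTK libraries, against 46.4, 48.4 and 53.4 CPM in shControl (log2 change -0.54, edgeR adjusted p = 4.04e-10). Total counts per library lay between 16176655 and 18484112. All 10 squamous epithelial markers were detected in every group. The leukocyte markers CD3D, CD4 and MS4A1 and the endothelial marker KDR were at 0, although LAPTM5 (188 CPM in shTTK and 172 CPM in shControl) and CDH5 (71.5 CPM in shTTK and 104 CPM in shControl) were present in CAL-27. Other non-epithelial markers were also read, among them CD14 (12.7 CPM in shTTK and 9.31 CPM in shControl) and CORO1A (18 and 13 CPM) in CAL-27. The fibroblast marker COL1A1 averaged between 20.1 and 34.3 CPM in every group. Library 1 of each SCC-15 group differed from the other libraries of that group more than those did from each other, with a mean chi-square per gene of 3.07 and 3.78 in shTTK (1.95 between libraries 2 and 3) and of 5.62 and 5.96 in shControl (1.98). As a median over its expected value, the chi-square differed less. It was 2.2 and 2.63 in shTTK (1.77 between libraries 2 and 3). In shControl it was 1.92 and 2.11 (1.76), beside 2.07 to 2.14 in CAL-27 shControl. The SCC-15 changes of the members and the counts of called genes on chromosome 17 and in the pathway lists are therefore also given without both of these libraries, as are other SCC-15 calls that were lost without them.

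The 4 genes form a cluster on the long arm of chromosome 17 (coordinates of GENCODE 29, GRCh38). SLFN5 lies at chr17:35243036-35273655 on the plus strand, and the other members follow on the minus strand: SLFN11 at chr17:35350305-35373701, SLFN12 at chr17:35411060-35433283 and SLFN13 at chr17:35435096-35448837. SLFN11 and SLFN13 share 367 transcript windows of 150 bases, the read length, which is 5.19% of the SLFN11 windows and 3.71% of those of SLFN13. SLFN5 and SLFN12 shared no such window with another gene. How reads that map to several places were counted is not given in the sources used here, so a few reads could have moved between SLFN11 and SLFN13.

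The promoter sequences of SLFN11 and SLFN12 are shown, the members found in the promoter table used here. Each runs 5′ to 3′ on the gene's own strand, from 250 bases before to 50 bases after the RefSeq start (GRCh38.p14). They lie at chr17:35373572-35373871 for SLFN11 and chr17:35433125-35433424 for SLFN12. Capitals mark matches to the motifs searched on both strands.
SLFN11: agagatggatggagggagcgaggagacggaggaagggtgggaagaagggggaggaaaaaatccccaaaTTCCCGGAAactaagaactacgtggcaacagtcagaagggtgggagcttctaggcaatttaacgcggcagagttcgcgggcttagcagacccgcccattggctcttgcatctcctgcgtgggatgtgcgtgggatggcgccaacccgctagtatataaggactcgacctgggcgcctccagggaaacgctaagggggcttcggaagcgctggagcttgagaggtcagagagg
SLFN12: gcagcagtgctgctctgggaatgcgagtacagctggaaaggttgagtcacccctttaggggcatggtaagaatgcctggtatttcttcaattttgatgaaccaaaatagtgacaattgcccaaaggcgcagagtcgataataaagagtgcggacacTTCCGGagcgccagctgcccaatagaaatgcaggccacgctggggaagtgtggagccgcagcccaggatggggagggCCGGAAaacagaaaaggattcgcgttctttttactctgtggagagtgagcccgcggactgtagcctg
The SLFN11 capitals are a STAT-type match (TTCNNNGAA) that starts 182 bases before the start and overlaps an ETS core (CCGGAA). The SLFN12 capitals are 2 ETS cores, the first on the opposite strand. A STAT-type match stood in 7.66% and an ETS core in 17.2% of 35116 RefSeq promoters of the same length. An ISRE-type motif (GAAA, any 2 bases, GAAA, in 3.57% of promoters) and an NF-kB-type motif (GGG, any 2 bases, TTTCC, in 1.91%) were in neither of these windows. SLFN11 had 18 CpG and SLFN12 13 CpG in these 300 bases, beside a median of 14 over all promoters.

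SLFN11 was a clearly expressed gene in CAL-27, a weakly expressed one in SCC-15, and nearly undetected in SCC-15 after TTK knockdown. SCC-15 shTTK libraries 1 to 3 held 10, 11 and 19 reads of SLFN11 (0.583, 0.634 and 1.06 CPM), against 125, 153 and 134 reads (7.14, 8.78 and 7.86 CPM) in SCC-15 shControl. The CAL-27 shTTK libraries held 949, 958 and 1055 reads (58.4, 56.7 and 64.9 CPM), against 936, 897 and 824 reads (53.5, 49.2 and 51.0 CPM) in CAL-27 shControl. No 2 of the 4 groups overlapped, and the knockdown libraries lay at both ends, lowest in SCC-15 and highest in CAL-27. The share of all tested genes with 4 separate groups is not given here, so nothing is read from this order.

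In SCC-15, SLFN11 averaged 0.760 ± 0.263 CPM in shTTK and 7.93 ± 0.821 CPM in shControl libraries (SD, n = 3 each), a log2 change of -3.36 ± 0.19 (SE) with 9.71% of the control level remaining. Summed over libraries and corrected for depth, 40 against 412 reads gave a ratio of 0.0963 (95% exact interval 0.0678 to 0.133, counting error only). The change was the 31st lowest of the 16946 genes tested, in the comparison that drew attention to the gene. Without both SCC-15 libraries numbered 1 it was -3.28. The 10 squamous epithelial markers summed to 8215 to 8252 CPM in SCC-15 shTTK and 8559 to 8914 CPM in SCC-15 shControl, and the 12 leukocyte markers to 6.51 to 6.94 CPM in shTTK (6 at 0) and 3.75 to 4.97 CPM in shControl (5 at 0). Their part in the result was not tested. As these are bulk samples, fewer cells that express the gene and less RNA per cell cannot be told apart. Within the shTTK group, library 3 held nearly as many SLFN11 reads as libraries 1 and 2 together, and without it the change was -3.69.

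In CAL-27, SLFN11 was higher after knockdown: 60 ± 4.34 CPM in shTTK and 51.2 ± 2.18 CPM in shControl libraries (SD, n = 3 each), a log2 change of 0.23 ± 0.065 (SE, edgeR adjusted p = 0.00493). This test did not use the SCC-15 comparison. It depended on shTTK library 3, the highest of the 12, without which the log2 change was 0.19 (adjusted p = 0.0573). The sum of the squamous epithelial markers was higher after this knockdown, but they did not all move alike. The 10 summed to 4924 to 4982 CPM in CAL-27 shTTK and 2917 to 3060 CPM in CAL-27 shControl, with none at 0. Among them KRT5 averaged 1924 CPM in shTTK and 886 CPM in shControl, and KRT14 73.2 CPM in shTTK and 3.44 CPM in shControl. EPCAM (228 CPM in shTTK and 277 CPM in shControl) and CDH1 (418 and 451 CPM) were lower, and SFN (447 and 436 CPM) was close. The 7 endothelial markers summed to 73.8 to 75.2 CPM in shTTK and 102 to 110 CPM in shControl, and the 12 leukocyte markers to 213 to 225 CPM in shTTK and 184 to 204 CPM in shControl. Their part in the CAL-27 changes of SLFN11 and SLFN5 was not tested. Subtracting the CAL-27 from the SCC-15 change gave -3.59 ± 0.20 on the log2 scale, given without a test because the SCC-15 comparison chose the gene.

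SLFN5 was lower in the shTTK libraries of both lines, by a smaller fold than SLFN11 in SCC-15. The SCC-15 shTTK libraries had 37.4, 33.1 and 34.3 CPM, against 50.3, 46.7 and 47.2 CPM in SCC-15 shControl. The CAL-27 shTTK libraries had 83.2, 90.8 and 88.3 CPM, against 98.8, 97.0 and 94.9 CPM in CAL-27 shControl. In each line every shTTK library lay below every shControl library. In SCC-15 this held for 19.6% of all tested genes. The share in CAL-27 is not given here, so nothing is read from the separation. The log2 change in SCC-15 was -0.46 ± 0.057 (SE), which left 72.7% of the control level, and it was -0.48 without both libraries numbered 1. In CAL-27 the log2 change was -0.15 ± 0.048 (edgeR adjusted p = 0.0135), which left 90.2%. That small fall missed the threshold without shControl library 1 (adjusted p = 0.0511), shControl library 2 (0.0735), shTTK library 1 (log2 change -0.10, adjusted p = 0.21) or shTTK library 3 (0.0628), and with no filter on low counts (0.0565).

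Of the 4 members, SLFN12 differed least between the lines. It had 4.67, 6.51 and 4.19 CPM in SCC-15 shTTK libraries, against 6.63, 8.21 and 10.1 CPM in SCC-15 shControl. In CAL-27 it had 8.31, 8.81 and 11 CPM in shTTK libraries, against 11.8, 11 and 8.30 CPM in shControl. The SCC-15 groups were separated only by the gap between 6.51 and 6.63 CPM, and the CAL-27 groups overlapped. The SCC-15 log2 change was -0.70 ± 0.17 (SE), which left 61.7% of the control level. It ranged from -0.90 to -0.53 as single libraries were left out and was -0.77 without both libraries numbered 1. In CAL-27 the log2 change of -0.15 ± 0.15 did not pass the test (edgeR adjusted p = 0.514), and its 95% interval ran from -0.45 to 0.14.

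SLFN13 was read almost only in CAL-27. The SCC-15 shTTK libraries held 0, 0 and 1 reads and the SCC-15 shControl libraries 1, 0 and 0 reads, so no fold is given in SCC-15. Both sums lie under a floor of 3 reads over a group. The CAL-27 shTTK libraries held 101, 82 and 94 reads (6.22, 4.85 and 5.78 CPM), against 62, 110 and 71 reads (3.55, 6.03 and 4.40 CPM) in CAL-27 shControl. Those groups overlapped, and the log2 change of 0.27 ± 0.21 (SE) did not pass the test (edgeR adjusted p = 0.384, 95% interval -0.14 to 0.67).

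Of the 4 members, SLFN11 was thus called higher and SLFN5 lower in CAL-27, with an adjusted p under 0.05 as the threshold for a call; 11.6% of all tested genes were called higher there and 15.7% lower. In SCC-15, 3 members had every shTTK library below every shControl library, which held for 19.6% of all tested genes; the choice of members used that comparison and nothing is read from this count.

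**Figure D1:**
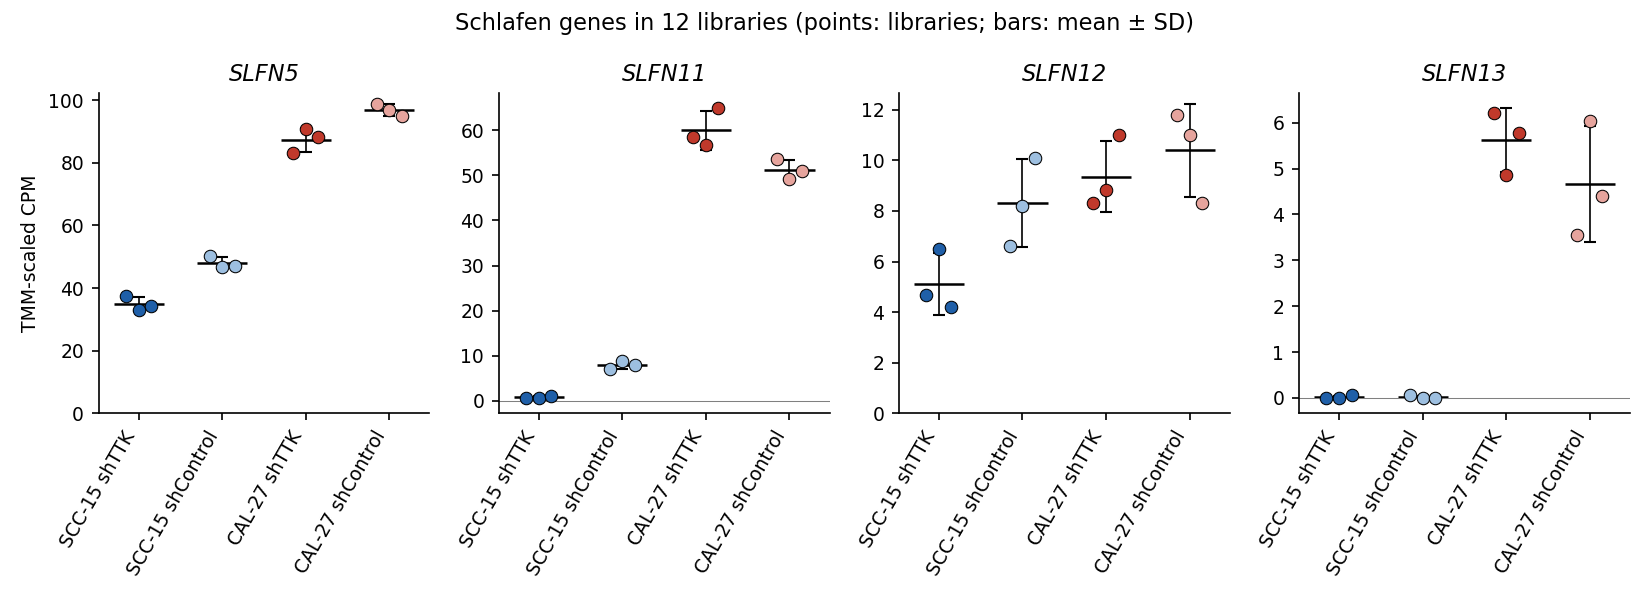
TMM-scaled CPM (vertical axes, linear, a scale for each gene) of SLFN5, SLFN11, SLFN12 and SLFN13 in the 4 groups (horizontal axes); points are libraries, black lines the mean and bars the SD of 3 libraries. SLFN11 lies between 0.583 and 1.06 CPM in SCC-15 shTTK and between 7.14 and 8.78 CPM in SCC-15 shControl, while in CAL-27 its shTTK libraries are the higher ones.

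The members also differed between the lines without knockdown. This comparison shares the SCC-15 shControl libraries with the one that drew attention to SLFN11. SLFN11 and SLFN5, and SLFN12 at the threshold, were called lower in SCC-15 than in CAL-27, as were 38.2% of all tested genes. SLFN13 is described without a test, since it passed the filter through the CAL-27 libraries where it was high. SLFN11 averaged 7.93 ± 0.821 CPM in SCC-15 shControl and 51.2 ± 2.18 CPM in CAL-27 shControl libraries (SD, n = 3 each), a log2 difference of -2.69 ± 0.085 (SE, edgeR adjusted p = 9.98e-43). SLFN5 averaged 48.0 ± 1.96 CPM in SCC-15 and 96.9 ± 1.98 CPM in CAL-27, a log2 difference of -1.01 ± 0.051 (edgeR adjusted p = 3.73e-30). Both differences were larger than the spread between libraries, and both remained called under every alternative run. Marker lists also differed between the lines. The squamous epithelial markers summed to 8559 to 8914 CPM in SCC-15 shControl and 2917 to 3060 CPM in CAL-27 shControl. They did not all differ alike. CDH1 (24.1 CPM in SCC-15 shControl and 451 CPM in CAL-27 shControl) and EPCAM (206 and 277 CPM) were lower in SCC-15, the others higher. The endothelial markers summed to 2.35 to 2.93 CPM in SCC-15 shControl and 102 to 110 CPM in CAL-27 shControl, mostly CDH5. The 8 fibroblast ones summed to 21.2 to 23 CPM in SCC-15 shControl and 32 to 37.7 CPM in CAL-27 shControl. The 12 leukocyte markers summed to 3.75 to 4.97 CPM in SCC-15 shControl and to 184 to 204 CPM in CAL-27 shControl, mostly LAPTM5, with 5 and 4 markers at 0 in that order and PTPRC at 0.0769 CPM in SCC-15 shControl and 0 in CAL-27 shControl. Their part in the result was not tested.

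For SLFN13, 1 read in SCC-15 shControl against 243 reads in CAL-27 shControl gave a depth-corrected ratio of 0.00411 (95% exact interval 1.04e-04 to 0.0231, counting error only). SLFN12 lay at the threshold: it averaged 8.31 ± 1.73 CPM in SCC-15 and 10.4 ± 1.83 CPM in CAL-27, a log2 difference of -0.32 ± 0.15 (edgeR adjusted p = 0.0496). The libraries of the 2 lines overlapped for SLFN12, and the call was lost under DESeq2 (adjusted p = 0.0679), under limma-voom (0.0526) and without both SCC-15 libraries numbered 1 (log2 difference -0.18, adjusted p = 0.298). It was also lost when SCC-15 shControl library 1 (adjusted p = 0.287) or 2 (0.104), SCC-15 shTTK library 1 (0.0578), CAL-27 shControl library 1 (0.214) or 2 (0.128), or CAL-27 shTTK library 2 (0.0557) was left out.

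Ordered by level over the 4 groups, SLFN5 ran from SCC-15 shTTK through SCC-15 shControl and CAL-27 shTTK to CAL-27 shControl, with no overlap at any step. SLFN11 had the same order but with CAL-27 shTTK on top. For SLFN12 only the step above SCC-15 shTTK was free of overlap, and for SLFN13 only the step between the lines. These orders are a description, without the share of all tested genes that have them.

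Levels of different genes were compared as CPM per kb of annotated exon. On this scale SLFN11 and SLFN5 were the leading members in CAL-27, with 10 ± 0.726 and 8.16 ± 0.362 CPM per kb in shTTK libraries and 8.57 ± 0.365 and 9.05 ± 0.185 CPM per kb in shControl libraries, in that order of genes. In SCC-15, SLFN5 led: it had 3.26 ± 0.209 CPM per kb in shTTK and 4.49 ± 0.183 in shControl libraries. SLFN11 had 0.127 ± 0.044 CPM per kb in SCC-15 shTTK and 1.33 ± 0.137 in SCC-15 shControl, below SLFN12 in both (1.44 ± 0.344 in shTTK and 2.33 ± 0.486 in shControl). SLFN13 reached 0.602 ± 0.075 CPM per kb in CAL-27 shTTK and 0.499 ± 0.135 in CAL-27 shControl.

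**Figure D2:**
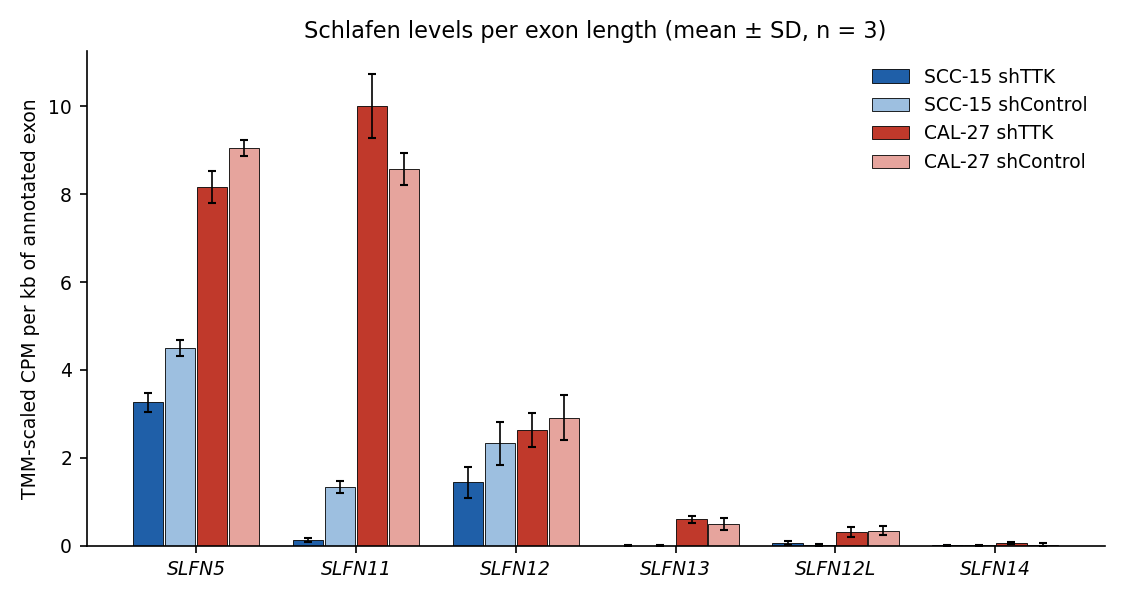
Mean TMM-scaled CPM per kb of annotated exon (vertical axis, from 0) of the 6 clustered Schlafen genes (horizontal axis) in the 4 groups; error bars are the SD of 3 libraries. SLFN11 and SLFN5 are the tallest in CAL-27, SLFN5 the tallest in SCC-15, and SLFN14 is close to 0 throughout.

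The remaining Schlafen genes were sparse. SLFN12L, a paralog of SLFN12 in the same cluster, had 15 reads in SCC-15 shTTK and 5 in SCC-15 shControl, and 76 in CAL-27 shTTK and 84 in CAL-27 shControl, each summed over 3 libraries. Neither knockdown change passed the test (edgeR adjusted p = 0.155 in SCC-15 and 0.905 in CAL-27). The depth-corrected ratio of SCC-15 shControl to CAL-27 shControl was 0.0594 (95% exact interval 0.0188 to 0.144, counting error only), given without a test because SLFN12L, like SLFN13, passed the filter through CAL-27. SLFN14, known from a human platelet disorder, had 1 to 8 reads per group and was not tested. SLFNL1, a Schlafen-like gene on chromosome 1, had 181 reads in SCC-15 shTTK and 156 in SCC-15 shControl, and 50 in CAL-27 shTTK and 26 in CAL-27 shControl. Its knockdown changes did not pass the test (edgeR adjusted p = 0.606 in SCC-15 and 0.0547 in CAL-27). Unlike the clustered members, it was higher in SCC-15 shControl than in CAL-27 shControl, by 5.89-fold (edgeR adjusted p = 2.68e-10). It overlaps the antisense gene SLFNL1-AS1, and because the strand setting of the counting is not stated, reads of this pair cannot be told apart. SLFNL1-AS1 was higher after knockdown in CAL-27, with 115 reads in shTTK and 60 in shControl (log2 change 1.00 ± 0.28, SE, edgeR adjusted p = 0.0047), a call that was lost without shControl library 1 (0.78, adjusted p = 0.056) or 2 (0.71, adjusted p = 0.0754). In SCC-15 it had 193 reads in shTTK and 203 in shControl (edgeR adjusted p = 0.839).

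The fall of SLFN11 in SCC-15 was set beside its chromosomal neighbours. Of 96 other genes within 1 Mb of SLFN11, 22 were tested. In SCC-15, 8 of the 22 were lower after knockdown (36.4%, beside 14.3% of all tested genes), 0 were higher (13.4% of all) and 14 were not called. Their median log2 change was -0.26, and that of all tested genes 0.00. In CAL-27, 0 were lower (15.7% of all), 3 were higher (13.6%, beside 11.6% of all) and 19 were not called. Their median in CAL-27 was -0.05. The lower group in SCC-15 comprised CCT6B, ZNF830, LIG3, RFFL, NLE1, AC060766.1, AP2B1 and MMP28.

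The SLFN11 change of -3.36 was larger than that of any of these neighbours. MMP28, a matrix metalloproteinase 383 kb away, had 12.1, 13.0 and 12.8 CPM in SCC-15 shTTK libraries, against 26.2, 26.1 and 23.7 CPM in SCC-15 shControl (log2 change -1.01 ± 0.099, SE, edgeR adjusted p = 1.05e-13). In CAL-27 it moved the other way, with 15 ± 0.482 CPM in shTTK and 5.83 ± 1.51 CPM in shControl libraries (SD, n = 3 each; log2 change 1.36 ± 0.12, edgeR adjusted p = 8.18e-16). AP2B1, a subunit of the clathrin adaptor AP-2 at 204 kb, had 331, 327 and 336 CPM in SCC-15 shTTK libraries, against 481, 495 and 489 CPM in SCC-15 shControl (log2 change -0.56 ± 0.030, edgeR adjusted p = 1.61e-26). MMP28 and AP2B1 thus had every SCC-15 shTTK library below every SCC-15 shControl library, as SLFN11 did, at a smaller fold. This also held for ZNF830, LIG3, RFFL, NLE1 and AC060766.1, and for 19.6% of all tested genes. All of these neighbours were named as called lower in this same comparison, so nothing is read from their separation.

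The falls of ZNF830, LIG3, the DNA ligase of mitochondria and base excision repair, RFFL, a ubiquitin ligase, and NLE1, a ribosome biogenesis factor, were smaller still, with SCC-15 log2 changes of -0.43, -0.25, -0.28 and -0.21 in that order. The largest edgeR adjusted p among them was 0.0153, for RFFL. CCT6B (log2 change -1.52 ± 0.56, adjusted p = 0.0314) and the pseudogene AC060766.1 (-1.40 ± 0.46, adjusted p = 0.0153) rested on few reads: CCT6B had 3, 6 and 3 reads in SCC-15 shTTK and 7, 23 and 5 in SCC-15 shControl, and AC060766.1 had 5, 9 and 3 reads in shTTK and 13, 16 and 16 in shControl. Both calls were lost without the SCC-15 libraries numbered 1, so that 6 of the 8 were kept. Leaving out a single SCC-15 library kept 6 to 8: CCT6B and RFFL were lost without shControl library 2, NLE1 without shControl library 3, CCT6B without shTTK library 1, RFFL without shTTK library 2, and AC060766.1 and CCT6B without shTTK library 3.

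The tested non-Schlafen genes that flank the cluster did not pass the test in either line. AC022916.1, on the SLFN5 side, had SCC-15 and CAL-27 log2 changes of -0.28 ± 0.41 and 0.11 ± 0.31 (SE, edgeR adjusted p = 0.682 and 0.841). LINC02001, beyond SLFN12L and SLFN14, had log2 changes of -0.19 ± 0.12 in SCC-15 and -0.19 ± 0.13 in CAL-27 (edgeR adjusted p = 0.276 and 0.305). The other higher neighbours in CAL-27 were TAF15, an RNA-binding protein of the FET family (log2 change 0.14 ± 0.036, adjusted p = 0.0021), and RDM1, a RAD52-related gene (0.57 ± 0.22, adjusted p = 0.038). RDM1 missed the threshold under DESeq2 and limma-voom and when either of shControl libraries 2 and 3 or shTTK libraries 1 and 3 was left out. Several of these genes overlap on the map, CCT6B with ZNF830 and LIG3, LIG3 with RFFL, AP2B1 with TAF15, MMP28 with TAF15, and AC060766.1 with AC060766.7 on the same strand, so their counts are uncertain.

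**Figure D3:**
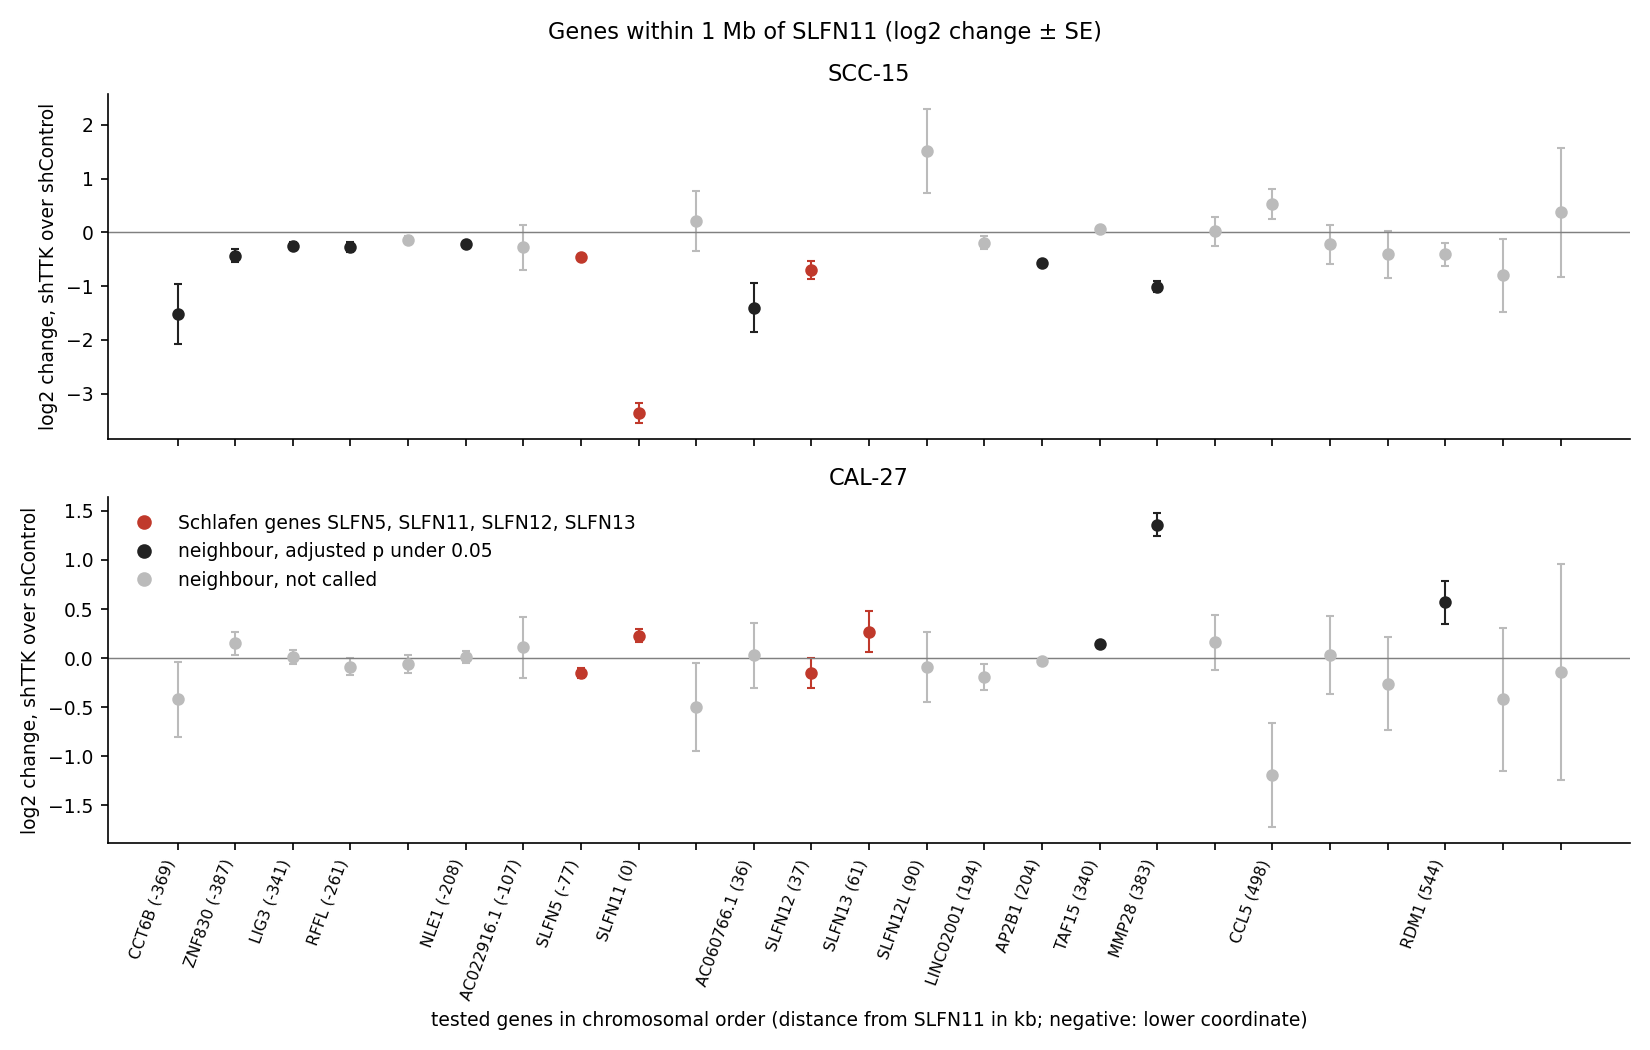
Log2 change, shTTK over shControl (vertical axes), of tested genes within 1 Mb of SLFN11 in chromosomal order (horizontal axis, distance in kb), for SCC-15 above and CAL-27 below; bars are the SE, red marks SLFN5, SLFN11, SLFN12 and SLFN13 and black the neighbours called, and the genes whose values are given in the text are labelled. SLFN11 stands at -3.36 in SCC-15 among neighbours between -1.52 and 1.51, and SLFN13 is left out of the SCC-15 panel because each group held 1 read.

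Lower calls in SCC-15 were not confined to the neighbours of SLFN11. The distance ranges here were chosen after values were seen. Of all tested genes, 14.3% were lower and 13.4% higher in SCC-15, and 15.7% lower and 11.6% higher in CAL-27. Of 105 tested genes at 1 to 5 Mb from SLFN11, 49 were lower and 1 higher in SCC-15 (46.7% lower). In CAL-27, 20 of them were lower (19%) and 13 higher (12.4%), near the shares of all tested genes there. Beyond 5 Mb, 210 of 927 were lower and 99 higher in SCC-15 (22.7% lower). Over the whole chromosome, 267 of 1054 tested genes were lower (25.3%) and 100 higher (9.49%) in SCC-15. In CAL-27, 150 were lower (14.2%) and 140 higher (13.3%). Without both SCC-15 libraries numbered 1, 229 were lower and 75 higher in SCC-15, beside 1912 lower and 1745 higher of 17344 tested genes. The median log2 change of the chromosome was -0.08 in SCC-15 and 0.01 in CAL-27.

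**Figure D4:**
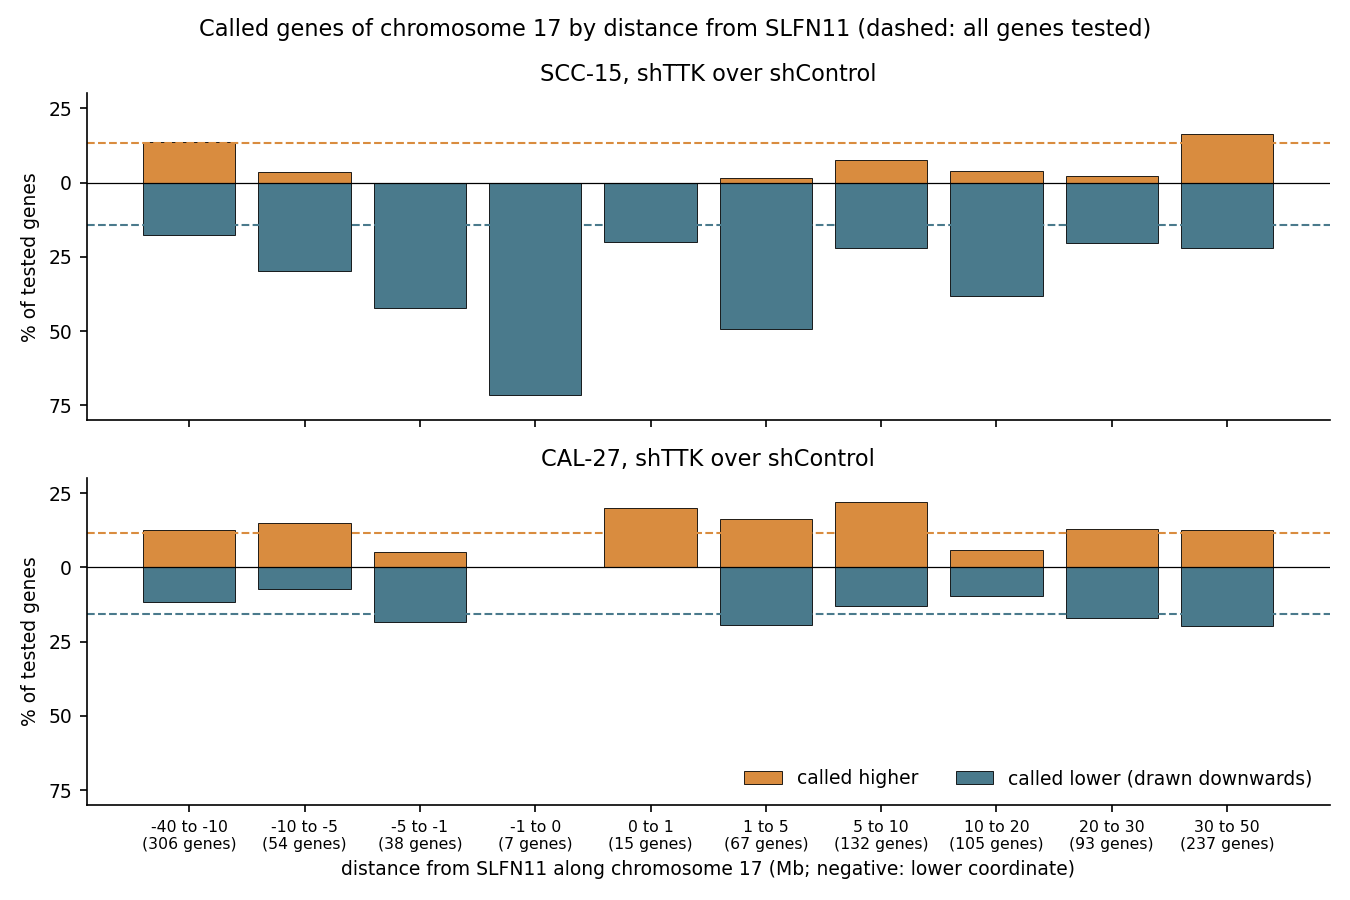
Percent of tested chromosome 17 genes called higher (upwards) and lower (downwards) after TTK knockdown (vertical axes) by distance from SLFN11 (horizontal axis, Mb), for SCC-15 above and CAL-27 below; dashed lines give the percent over all genes. In SCC-15 lower calls make up 42.1% at 5 to 1 Mb before SLFN11 and 49.3% at 1 to 5 Mb after it, beside 71.4% of the 7 genes at 1 to 0 Mb before it and 20% of the 15 genes at 0 to 1 Mb after it.

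Lists of genes that share a pathway with the members were set beside them. Over all tested genes, 13.4% were called higher and 14.3% lower in SCC-15, and 11.6% higher and 15.7% lower in CAL-27. Interferon induces several Schlafen genes, and 44 interferon signalling and response genes were tested. In SCC-15, 12 rose, 11 fell and 21 did not pass the test (median log2 change 0.01); without both SCC-15 libraries numbered 1, 11 rose and 9 fell. In CAL-27, 23 rose, 5 fell and 16 did not pass (median 0.17, beside -0.01 over all tested genes). IFI27, an interferon-induced mitochondrial protein, was higher after knockdown in both lines. It had 41.2 ± 1.19 CPM in CAL-27 shTTK and 11.8 ± 0.633 CPM in CAL-27 shControl (SD, n = 3 each, edgeR adjusted p = 1.02e-28). In SCC-15, IFI27 had 3.36 ± 0.202 CPM in shTTK and 2.08 ± 0.127 CPM in shControl (log2 change 0.69, edgeR adjusted p = 0.00133). JAK1, a kinase of interferon receptors, had 57.7, 60.2 and 63.5 CPM in SCC-15 shTTK libraries, against 103, 112 and 107 CPM in SCC-15 shControl (log2 change -0.83 ± 0.044, edgeR adjusted p = 7.25e-27). Its CAL-27 change was -0.15 ± 0.040 (adjusted p = 0.0018). IFIT2, an antiviral effector, was higher in SCC-15 knockdown (0.67 ± 0.050, adjusted p = 1.57e-14), whereas DDX60, an antiviral helicase, was lower (-0.56 ± 0.068, adjusted p = 2.07e-10).

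Regulators described at the SLFN11 promoter in other cells (ETS factors, Polycomb, DNA methylation and histone-modifying enzymes) comprised 19 genes, of which 18 were tested and ERG was not. In SCC-15, 8 rose, 5 fell and 5 did not pass the test (median 0.00, or 0.02 with the gene at or under 3 counts in a group set at its bound); in CAL-27, 2 rose, 8 fell and 8 did not pass (median -0.16). Without both SCC-15 libraries numbered 1, 19 were tested, 6 rose and 3 fell in SCC-15. KDM1A, the histone demethylase LSD1, had 563 ± 9.40 CPM in SCC-15 shTTK and 493 ± 4.12 CPM in SCC-15 shControl (SD, n = 3 each; log2 change 0.19, edgeR adjusted p = 1.78e-07). In CAL-27, KDM1A had 457 ± 9.05 CPM in shTTK and 751 ± 10.6 CPM in shControl (log2 change -0.72, edgeR adjusted p = 8.42e-34). DNMT3B, a DNA methyltransferase, rose in both lines. It had 70.5 ± 1.98 CPM in SCC-15 shTTK and 55.5 ± 0.426 CPM in SCC-15 shControl (log2 change 0.34, edgeR adjusted p = 1.06e-06). In CAL-27, DNMT3B had 12.9 ± 1.02 CPM in shTTK and 10.9 ± 0.5 CPM in shControl (log2 change 0.24, edgeR adjusted p = 0.0434). ETS1, an ETS factor, was lower in both lines, by log2 changes of -0.36 in SCC-15 (adjusted p = 0.00353) and -0.76 in CAL-27 (adjusted p = 2.08e-08), and its SCC-15 call was lost without both libraries numbered 1 (-0.27, adjusted p = 0.109). FLI1, another ETS factor and among the genes counted as lower in SCC-15, was picked out after its values were seen. It passed the filter through the SCC-15 shControl libraries, where it was high, so it is described without a test. It had 14, 4 and 4 reads in SCC-15 shTTK and 24, 28 and 18 in SCC-15 shControl (log2 change -1.66), and 0 in every CAL-27 library. Without both SCC-15 libraries numbered 1, its log2 change was -2.51. Whether any of these genes bears on SLFN11 in these cells was not tested.

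Genes of the replication fork, where SLFN11 acts, came next. Of 16 fork partners, 3 rose and 3 fell in SCC-15 and 0 rose and 7 fell in CAL-27, with log2 changes between -0.29 and 0.26 in SCC-15 (median -0.02) and between -0.24 and 0.03 in CAL-27 (median -0.10). Without both SCC-15 libraries numbered 1, 2 rose and 4 fell in SCC-15. MCM7, a subunit of the replicative helicase, was the highest in SCC-15 (0.26 ± 0.030, adjusted p = 4.49e-11), and DHX9, an RNA and DNA helicase, the lowest in CAL-27 (-0.24 ± 0.032, adjusted p = 7.55e-09). Of 22 checkpoint genes and drug targets tied to SLFN11, 5 rose and 3 fell in SCC-15 (median 0.00) and 2 rose and 6 fell in CAL-27 (median -0.05); without both SCC-15 libraries numbered 1, 5 rose and 2 fell in SCC-15. TOP1, the target of camptothecins, was higher in SCC-15 knockdown (0.24 ± 0.035, adjusted p = 6.32e-08), and PARP1, the target of PARP inhibitors, was lower in both lines (-0.11 in SCC-15, adjusted p = 0.00293, and -0.16 in CAL-27, adjusted p = 1.02e-05).

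For the tRNA-cleaving activity of SLFN11, SLFN12 and SLFN13, 24 genes of tRNA handling and stalled ribosomes were counted. In SCC-15, 9 rose and 4 fell (median 0.08), and in CAL-27, 5 rose and 9 fell (median -0.10). Without both SCC-15 libraries numbered 1, 7 rose and 4 fell in SCC-15. SARS, the seryl-tRNA synthetase, was higher in both lines (0.31 ± 0.037 in SCC-15, adjusted p = 1.53e-10, and 0.32 ± 0.037 in CAL-27, adjusted p = 3.54e-11). NSUN2, a tRNA methyltransferase, was lower in both (-0.31 ± 0.032, adjusted p = 1.06e-12, and -0.24 ± 0.033, adjusted p = 1.20e-08, in the same order).

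The partner of SLFN12, PDE3A, was barely read, with 25 reads in SCC-15 shTTK and 43 in SCC-15 shControl, and with 5 in CAL-27 shTTK and 12 in CAL-27 shControl (edgeR adjusted p = 0.245 in SCC-15 and 0.346 in CAL-27). The related phosphodiesterase PDE3B had 269 reads in SCC-15 shTTK and 313 in SCC-15 shControl (edgeR adjusted p = 0.411), and passed the filter through SCC-15. In CAL-27, PDE3B had 0 reads in shTTK and 7 in shControl, at least 2.22-fold lower against a floor of 3 reads over the group. That CAL-27 call (edgeR adjusted p = 0.0141) rests on these 7 reads.

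**Figure D5:**
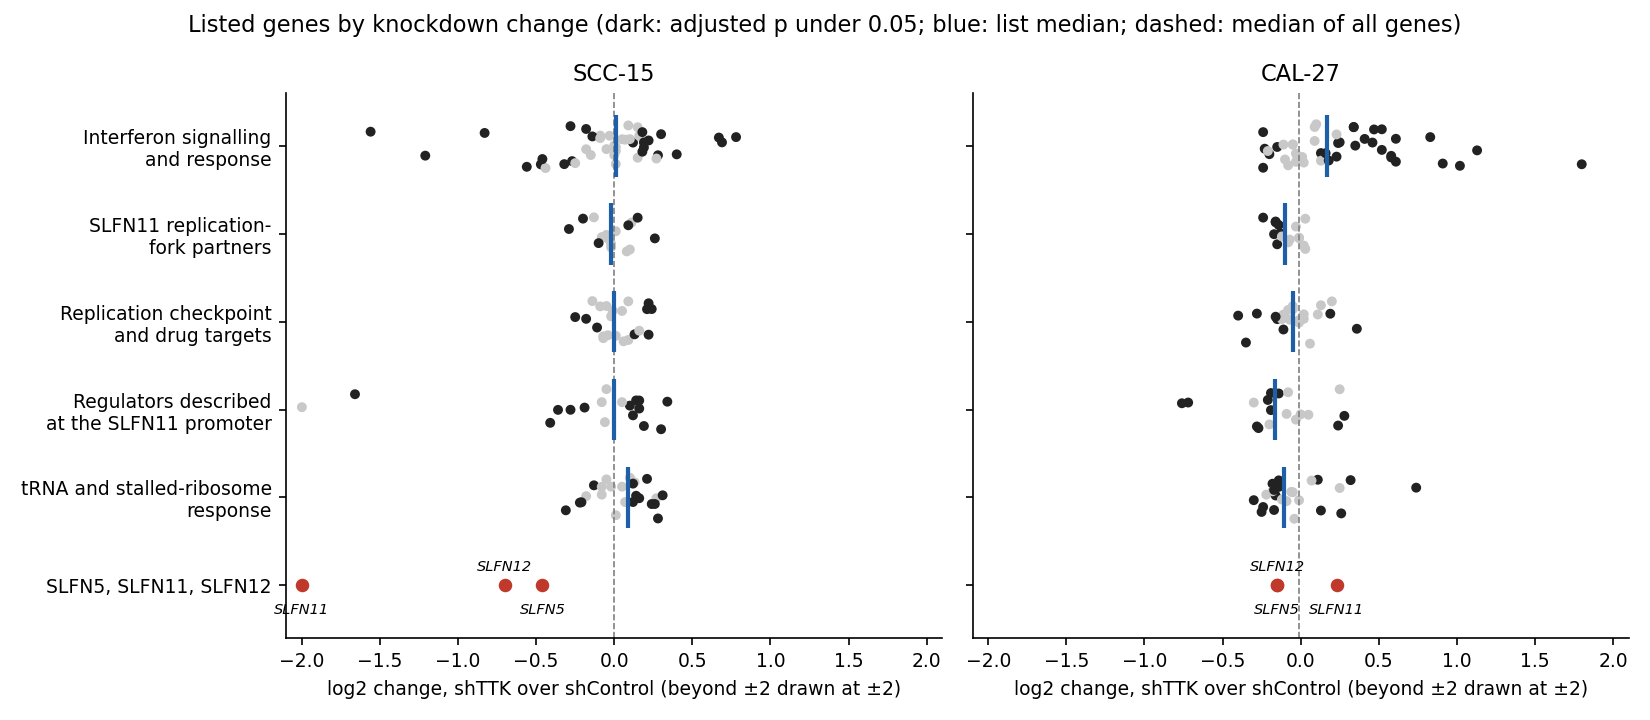
Log2 change, shTTK over shControl (horizontal axes), of the genes of 5 lists and of SLFN5, SLFN11 and SLFN12 (rows), for SCC-15 on the left and CAL-27 on the right; each point is a gene, dark where called, and blue lines are list medians. SLFN11, at -3.36 in SCC-15, is drawn at the left edge, and the interferon median is 0.01 in SCC-15 and 0.17 in CAL-27.

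Over the 12 libraries, the 5 genes whose log2 CPM followed SLFN11 most closely included UBE2K (Pearson r = 0.995), LINC00958 (0.994), DCAF7 (0.994) and C1S (0.993). C1S, a complement protease, had 13.3 ± 0.651 CPM in SCC-15 shTTK and 52.1 ± 0.0557 CPM in SCC-15 shControl, and 132 ± 3.90 CPM in CAL-27 shTTK and 140 ± 4.61 CPM in CAL-27 shControl (SD, n = 3 each). Of these 4 genes, DCAF7 alone lies on chromosome 17. The correlation with SLFN11 was 0.961 for SLFN5, 0.875 for SLFN13 and 0.827 for SLFN12. These values are a description without a test, since the 12 libraries fall into 2 lines and 4 groups and are not 12 independent points.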

How the data were processed

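The deposited table holds raw read counts per gene symbol for 12 libraries, made by the authors with no normalization. STAR 2.7.7a, featureCounts 2.0.1, Trim Galore 0.6.6 and the build hg38 are named per the submitters' processing notes. Which annotation was counted, with which strand setting, and what was done with multimapping reads is not given in the sources used here. The labels describe dUTP strand-specific libraries read as paired ends of 150 bases. Every column was mapped to a sample by its name (0 columns left out).

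From these counts, edgeR 4.0.16 (limma 3.58.1, R 4.3.3) fitted a robust quasi-likelihood model with 4 group means to all 12 libraries after filterByExpr on the 4 groups (16946 genes kept) and TMM scaling, so the lines share one estimate of the spread. P-values are two-sided and Benjamini-Hochberg adjusted over all tested genes of a comparison, and an adjusted p under 0.05 is a call. The SE is the absolute log2 change over the square root of F. Library totals lay between 16176655 and 18484112. Exact intervals for ratios of summed reads, and floors of 3 reads, cover counting error only. Coordinates and exon-union lengths are those of GENCODE 29, and 58708 of 58735 lines found their symbol there. Promoters are from a table of RefSeq sequences (GRCh38.p14), in which 2 of the 4 members, SLFN11 and SLFN12, were matched; those of SLFN5 and SLFN13 were not analysed here.

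The members, gene lists and tests were chosen with earlier results of these data known. Beside the members, the text names other SLFN genes, neighbours within 1 Mb called in either line, the nearest tested neighbour on each side, TTK, up to 3 called genes per list and line by adjusted p, and the 5 genes most correlated with SLFN11; of these, the more telling values are printed, and some genes are not reported here. No pairing by replicate number was seen: same-numbered shTTK and shControl libraries had deviations that correlated between -0.0419 and 0.0274. The labels do not say what the number marks, so a pairing in the design stays unsettled. Alternatives were DESeq2 1.42.0, limma-voom, RLE scaling, other filters, a block for the replicate number, separate fits of the lines, windows of 500 kb and 2 Mb, and without each library; the fit without both SCC-15 libraries numbered 1 was added after the data were seen. The steps were tested on simulated data.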

Additional observations from a re-analysis of the deposited data

Results flagged for a closer look

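Results were picked out here because the knockdown change differed between the lines, given as the log2 change in SCC-15 less that in CAL-27. For SLFN11 this difference was -3.59, which was not tested because the SCC-15 comparison chose the gene. For the other genes except CCL5, which is described without a test, the edgeR test of the difference itself gave an adjusted p under 0.05. It did so for 25.4% of all tested genes. The genes listed below were mostly named for a call in either line, which favours a difference, so nothing is read from their number.

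Among the neighbours of SLFN11 the differences were -0.58 for ZNF830, -0.26 for LIG3, -0.22 for NLE1, -0.53 for AP2B1, -2.37 for MMP28 and -0.98 for RDM1. CCL5, a chemokine named after its values were seen and called in neither line alone, differed in the other direction, by 1.71. It was low in CAL-27, with 0.326 CPM in shTTK and 0.748 CPM in shControl, beside 4.2 and 2.93 CPM in SCC-15. As single libraries were left out, its difference ranged from 1.32 (without CAL-27 shTTK library 3) to 2.76 (without CAL-27 shTTK library 1). SLFNL1-AS1 differed by -1.08, a call lost without CAL-27 shControl library 1 (0.0899) or 2 (0.115) or SCC-15 shControl library 2 (0.0517). Among the interferon genes they were -1.11 for IFI27, -0.43 for SAMD9, -1.01 for IFI6, -0.67 for JAK1, 0.69 for IFIT2 and -0.57 for DDX60. Among the replication-fork and checkpoint genes they were 0.22 for DHX9, 0.32 for MCM4, 0.13 for MCM5, 0.23 for MCM7, -0.18 for DDB1, 0.48 for RRM2, -0.54 for WEE1, 0.35 for TOP1 and 0.29 for TOPBP1. For the regulators described at the SLFN11 promoter they were 0.91 for KDM1A, 0.40 for UHRF1 and 0.41 for ETS1. TTK itself differed by -0.67.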

How the results depend on the processing

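The direction of each member's change in CAL-27, SCC-15 (no test, SLFN13 left out) and the line comparison (SLFN13 without a test) was kept under all alternatives run. SLFN5 in CAL-27 missed the threshold with every gene that has a count (log2 change -0.13, adjusted p = 0.0565), and leaving out single libraries gave -0.18 to -0.10 (adjusted p 0.00898 to 0.21). SLFN11 in CAL-27 ranged from 0.19 to 0.26 (0.00117 to 0.0573). SLFN12 in SCC-15 over CAL-27 was -0.34 under DESeq2 (0.0679) and limma-voom (0.0526), -0.18 without both SCC-15 libraries numbered 1 (0.298), and -0.49 to -0.18 without single libraries (0.00531 to 0.287). The cause was not tested. With a window of 2 Mb, which holds more genes, 4 of 37 tested neighbours were lower in CAL-27 (10.8%, beside 15.7% of all tested genes). In SCC-15, 15 of the 37 were lower (40.5%, beside 14.3% of all). Leaving out single libraries gave 0 to 1 lower neighbours in CAL-27, and 0 to 1 higher and 6 to 8 lower ones in SCC-15. Over the 9 other settings the SCC-15 change of SLFN11 lay between -3.37 and -3.28. With the block for the replicate number, whose meaning the labels do not give, SLFN11 in CAL-27 was 0.23 (edgeR adjusted p = 0.00642) and SLFN5 -0.15 (0.0147). No member's call in CAL-27 changed. The block lies within each line, so the line comparison was not fitted with it. SLFN13 and SLFN12L are limited by depth in SCC-15, where a group sum of 3 reads is 0.0572 CPM in shTTK and 0.0577 CPM in shControl.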
